A study of Mus musculus with 6 samples.

Results

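The 39 genes described here carry the symbols of subunits of complexes III, IV and V of the mitochondrial respiratory chain and of cytochrome *c*, out of 18138 gene symbols on the array. The rule takes in 2 that are no subunits in the strict sense, *Atp5s* and *Cox7a2l*. They were chosen by symbol alone: every symbol starting with Uqcr, Cox4 to Cox8 or Atp5, plus *Cyc1* and *Cycs*, without *Cox4nb* and *Atp5sl*. Complex III gave 7 genes, complex IV 16, complex V 15 and cytochrome *c* 1. The 39 symbols had 45 probes among the 25697 on the array, and the brightest probe stood for each symbol. The samples were cochleae of 12-month-old C57BL/6 mice (C57BL/6J in the study's methods), 3 wild type (WT) and 3 *Cmah*-null, and the mRNA of each was read on 1 Illumina MouseRef-8 v2 array. *Cmah* encodes the hydroxylase that makes the sialic acid Neu5Gc, and its loss was studied as a model of age-related hearing loss. The labels do not give the sex of the mice, the number of ears per sample or whether each sample is 1 mouse.

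Complex III (ubiquinol-cytochrome *c* reductase) passes electrons from ubiquinol to the small soluble protein cytochrome *c*, and complex IV (cytochrome *c* oxidase) passes them on to oxygen. Both pump protons, and complex V (ATP synthase) uses the returning protons to make ATP. Several subunits of complex IV exist as a form found in most tissues and a form restricted to heart and skeletal muscle, lung or testis, and the stria vascularis, hair cells and neurons of the cochlea depend heavily on oxidative metabolism.

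Most of the 39 genes read lower in *Cmah*-null than in WT cochleae. The log2 fold change, given throughout as *Cmah*-null minus WT, was negative in 31 genes and positive in 8, and its median was -0.41, beside 0.00 over all probes. The study's threshold was 1.5-fold with an unadjusted p under 0.05. It was applied here with p-values from limma, not with the study's own p-values. The study lists further members, such as *Uqcrc2*, *Uqcrh* and *Cox6b1*, as differentially expressed. At the threshold with limma p-values, 8 genes were lower in *Cmah*-null cochleae, beside 1.41% of all probes. These were *Cyc1* and *Uqcr* of complex III, *Cox6c*, *Cox7a1*, *Cox7b* and *Cox8b* of complex IV, *Atp5h* of complex V, and *Cycs*. A single gene was higher, *Cox6b2*, beside 1.3% of all probes. In 14 genes each *Cmah*-null array lay below each WT array, which held for 7.33% of all probes, and in *Cox6b2* and *Cox4i2* each lay above, which held for 9.11%. No member passed an adjusted p under 0.05 in limma with Benjamini-Hochberg adjustment over all probes (0% of probes did), where the smallest adjusted p of a member was 0.397 and 10 members had an unadjusted p under 0.05. The 8 lower genes became 2 (*Cox7b* and *Cycs*) with median scaling (each array brought to a common median, with no quantile normalization), 16 with the number of beads as a block, 4 without WT replicate 2 and 5 without WT replicate 1. Over all probes the share that was lower was then 0.307% with median scaling, 3.40% with the bead block, 0.926% without WT replicate 2 and 1.78% without WT replicate 1. With any 1 array left out, *Cox7a1*, *Cox7b* and *Cycs* kept their calls. The calls of *Uqcr*, *Atp5h* and *Cox8b* were lost without WT replicate 1 and without WT replicate 2, that of *Cox6c* without WT replicate 2 and without WT replicate 3, that of *Cox8b* also without WT replicate 3, that of *Cyc1* without WT replicate 1 and without *Cmah*-null replicate 2, and that of *Atp5h* also without *Cmah*-null replicate 3. Under that scaling 22 genes were negative and 17 positive, the median of the probes detected on all 6 arrays moved from 0.03 to 0.30, and the members lay 0.43 below it, against 0.44 below it with the deposited values.

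A probe was called detected on an array where its detection p was under 0.05. By that measure 33 of the 39 genes were detected on all 6 arrays. *Uqcrq*, *Cox7b2* and *Cox8c* were detected on none, *Uqcrfs1* and *Atp5k* on 1, and *Cox4i2* on 2. The 33 genes had a median of -0.66, beside 0.03 for the 12410 probes detected on all 6 arrays, and 8 of them (24.2%) were lower at the threshold, beside 2.64% of those probes, and 1 higher, beside 2.51%. Each *Cmah*-null array lay below each WT array in 14 of the 33 (42.4%), beside 7.86% of those probes, and above in 1, beside 11.5%. The other 6 genes had log2 fold changes from -0.11 to 0.22.

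**Figure D1:**
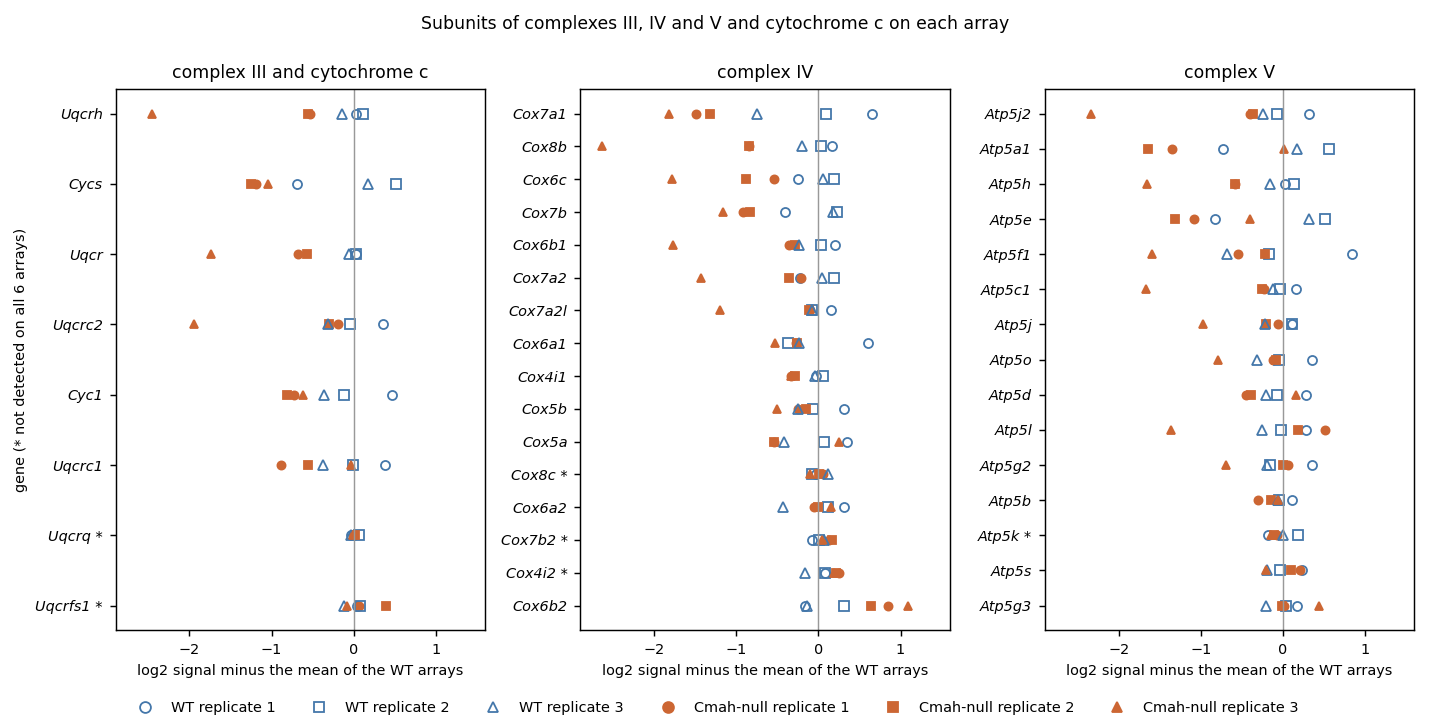
Log2 signal of each of the 39 genes on each array, minus the mean of its 3 WT arrays, by complex and ordered by fold change. Open blue symbols are WT and filled orange symbols *Cmah*-null arrays; in 14 genes all 3 *Cmah*-null arrays lie left of all WT arrays, and in *Cox6b2* and *Cox4i2* all lie right of them.

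On the WT arrays 15223, 14634 and 14932 probes were detected, and on the *Cmah*-null arrays 14312, 14418 and 13873. Each *Cmah*-null array thus had fewer detected probes than each WT array, and the part of this in the fold changes was not tested. Precision is limited by there being 3 arrays per genotype. The probe for *Cmah* was detected on 1 WT and 2 *Cmah*-null arrays and is too dim to check the genotypes. *Cmah*-null replicates 1 and 2 differed with an SD of 0.126 on the log2 scale, against 0.307 to 0.636 for any other pair. The ratio of their squared difference to that of the bead noise was 2.82, and it was 24.4 to 115 in the other pairs. Bead noise arises within an array, so this ratio does not show whether the 2 come from different mice. They were kept apart because the labels list 2 samples. With their mean as 1 sample 8 members were lower at the threshold, 7 of them as above, beside 1.33% of all probes. The p-values measure only the spread between these samples, which may be technical. *Cmah*-null replicate 3 stood apart, and WT replicate 1 and *Cmah*-null replicates 1 and 2 had a median of 32 to 34 beads per probe against 38 or 39 on the other arrays. Below, a fold change of 0.2 or more in size is also given without *Cmah*-null replicate 3 where that moved it by over 1.5 times. This was done for the 39 genes and the genes of the lists read beside them. In these whole-tissue samples, fewer cells of a type and less RNA per cell cannot be told apart.

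In complex III, all 5 genes detected on all 6 arrays had negative fold changes, from -1.18 to -0.49, and the median over its 7 genes was -0.72 (-0.20 with median scaling). Log2 signals are listed below for replicates 1, 2 and 3 in that order. *Cyc1*, cytochrome *c*1, which hands the electron to cytochrome *c*, read 13.30, 12.71 and 12.47 in WT and 12.10, 12.01 and 12.21 in *Cmah*-null cochleae. The groups did not overlap, and *Cyc1* was 1.65-fold lower (log2 fold change -0.72 ± 0.22 SE, adjusted p = 0.510 in limma). The small subunit *Uqcr*, now named *Uqcr11*, read 14.31, 14.31 and 14.23 in WT against 13.61, 13.71 and 12.55, with no overlap and a fold change of -0.995 ± 0.32 (SE, n = 3 and 3), which was -0.62 without replicate 3. *Uqcrh*, the acidic hinge subunit at the docking site of cytochrome *c*, read 13.41, 13.49 and 13.24 in WT and 12.85, 12.82 and 10.92 in *Cmah*-null arrays. Replicate 3 set most of its fold change of -1.18 ± 0.54, which was -0.54 without that array. *Uqcrc2*, a core protein, had values of 14.71, 14.30 and 14.04 in WT against 14.16, 14.05 and 12.41. Here the first 2 *Cmah*-null arrays lay inside the WT range, and the fold change of -0.81 ± 0.50 was -0.25 without replicate 3. The other core protein gene, *Uqcrc1*, did the opposite on that array: it read 13.22 in *Cmah*-null replicate 3, inside the WT range of 12.88 to 13.63, and 12.37 and 12.70 in replicates 1 and 2. It was named after its values were seen. The Rieske iron-sulphur subunit gene *Uqcrfs1* and *Uqcrq* were at or near background in both genotypes, so their levels were not measured.

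*Cycs*, somatic cytochrome *c*, was 2.24-fold lower in *Cmah*-null cochleae. It read 8.83, 10.03 and 9.68 in WT and 8.32, 8.27 and 8.47 in *Cmah*-null arrays. The *Cmah*-null arrays were close to each other and all lay below the lowest WT array, WT replicate 1, which was itself far from the other WT arrays (log2 fold change -1.16 ± 0.31 SE, adjusted p = 0.454 in limma). A second probe for *Cycs* read 8.67, 8.71 and 8.50 in WT against 8.27, 8.28 and 7.95. It also separated the groups, with a smaller fold change of -0.46 ± 0.12. The call for *Cycs* was kept in each of the 15 alternatives.

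**Figure D2:**
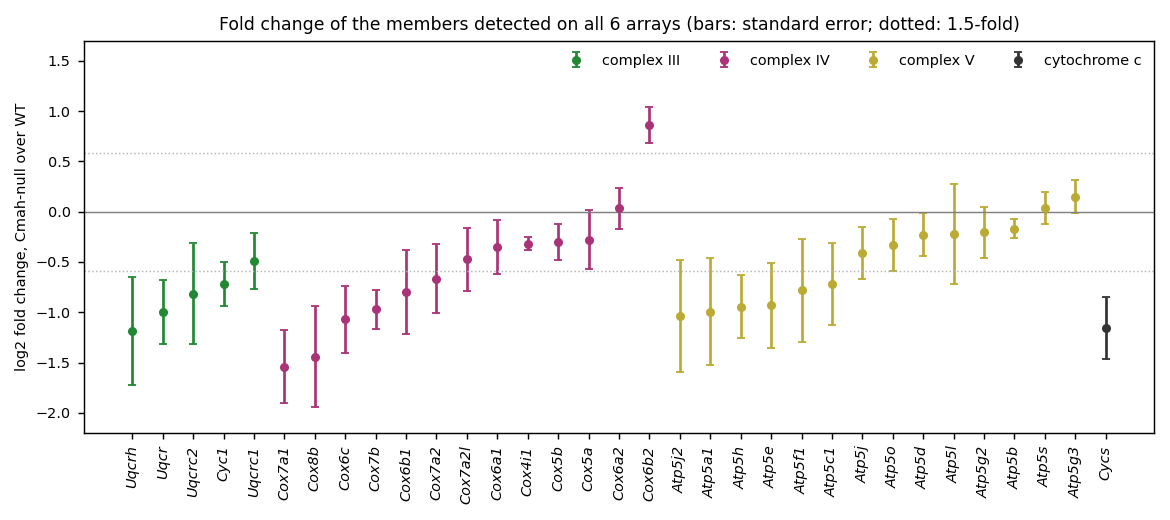
Log2 fold change, *Cmah*-null over WT, of the 33 genes detected on all 6 arrays, with its standard error from limma (n = 3 and 3), ordered by complex. Of the 33, 29 lie below 0; *Cox6b2* is the only one above the upper dotted line of 1.5-fold.

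In complex IV, 12 of the 16 genes had negative fold changes, and the median was -0.33. At the threshold 4 were lower (25%), beside 1.41% of all probes, and 1 was higher, beside 1.3%. With median scaling the median was -0.000246, beside 0.30 for the probes detected on all 6 arrays. In 7 of the 16 genes (43.8%) each *Cmah*-null array lay below each WT array, beside 7.33% of all probes, and in 2 each lay above, a share near the 9.11% of all probes. *Cox4i1*, the regulatory subunit of most tissues, had close replicates: it read 15.04, 15.13 and 15.03 in WT and 14.73, 14.78 and 14.73 in *Cmah*-null cochleae. The difference of -0.32 ± 0.07 was 1.25-fold, under the threshold of size, and had an adjusted p of 0.399 in limma. With median scaling it was 0.10, still below that scaling's median of 0.30. *Cox6c*, a subunit with 1 form in all tissues, read 13.44, 13.89 and 13.76 in WT against 13.16, 12.81 and 11.92. All its *Cmah*-null arrays lay below WT, with a fold change of -1.07 ± 0.33. *Cox7b*, *Cox5a*, *Cox5b* and *Cox7a2l* were named after their values were seen. *Cox7b* read 8.79, 9.42 and 9.37 in WT and 8.28, 8.35 and 8.03 in *Cmah*-null arrays, with a fold change of -0.97 ± 0.20. *Cox5a*, *Cox5b* and *Cox7a2l*, the last a factor that joins complex IV to complex III, had fold changes of -0.28, -0.30 and -0.47 and did not reach the threshold. Without *Cmah*-null replicate 3 these were -0.54, -0.20 and -0.11.

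The muscle forms of complex IV subunits did not move together. *Cox7a1*, the heart and skeletal muscle form of subunit VIIa, was 2.91-fold lower in *Cmah*-null cochleae, the largest fall among the 39 genes in the deposited values. It read 14.19, 13.63 and 12.79 in WT and 12.05, 12.22 and 11.72 in *Cmah*-null arrays. The lowest WT array lay above the highest *Cmah*-null array, and the fold change of -1.54 ± 0.36 had an adjusted p of 0.422 in limma. *Cox8b*, the muscle form of subunit VIII, which like *Cox7a1* is also abundant in brown fat, read 14.95, 14.81 and 14.58 in WT against 13.93, 13.94 and 12.15. Its groups were also apart, with a fold change of -1.44 ± 0.51 that was -0.84 without replicate 3. *Cox6a2*, the muscle form of subunit VIa, read 14.93, 14.73 and 14.18 in WT and 14.56, 14.61 and 14.77 in *Cmah*-null arrays. The *Cmah*-null arrays lay within the WT range, and the fold change of 0.03 ± 0.20 had either sign among the alternatives, from -0.18 to 0.46.

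Each muscle form was then set against its partner or against another muscle form on the same array, so that only differences within an array were compared between genotypes. For *Cox7a1* less *Cox7a2*, the form of most tissues, the difference was 3.95, 2.97 and 2.28 in WT and 1.79, 2.10 and 2.68 in *Cmah*-null arrays. The groups overlapped, and the shift of -0.88 ± 0.55 (SE) had p = 0.2 in a two-sided exact permutation test, whose smallest p with 3 against 3 arrays is 0.1. Without WT replicate 1 the shift was -0.44. *Cox7a2* itself read 10.24, 10.66 and 10.51 in WT and 10.26, 10.12 and 9.05 in *Cmah*-null arrays, with a fold change of -0.66 ± 0.34 that was -0.28 without replicate 3. For *Cox6a2* less *Cox6a1*, the difference was 0.80, 1.59 and 0.91 in WT against 1.32, 1.36 and 1.79. It shifted by 0.39 ± 0.29 (p = 0.3, exact permutation test), and the groups overlapped. With an array left out this shift ran from 0.24 to 0.63, the lowest without *Cmah*-null replicate 3 or WT replicate 1 and the highest without WT replicate 2. *Cox6a1* had a fold change of -0.35 ± 0.27 (-0.05 without WT replicate 1, and 0.15 with median scaling, below that scaling's median of 0.30), with log2 signals of 14.12, 13.14 and 13.28 in WT and 13.24, 13.26 and 12.99 in *Cmah*-null cochleae. *Cox8a*, the partner of *Cox8b*, was not matched by symbol, so that pair was not formed.

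*Cox7a1* and *Cox8b* were also set against *Cox6a2*, a comparison added after these values were seen. Both differences were lower on every *Cmah*-null array than on any WT array. Levels of different probes are not compared, so only the shift between genotypes is read. *Cox7a1* less *Cox6a2* was -0.73, -1.10 and -1.39 in WT and -2.51, -2.40 and -3.05 in *Cmah*-null arrays, a shift of -1.58 ± 0.28 (SE). *Cox8b* less *Cox6a2* was 0.02, 0.07 and 0.40 in WT and -0.63, -0.68 and -2.62 in *Cmah*-null arrays, a shift of -1.48 ± 0.67 that was -0.82 without replicate 3. In both, each *Cmah*-null array lay below each WT array, and the exact permutation test gave p = 0.1, its smallest value (adjusted p = 0.1 over the 2 comparisons). The choice of these 2 comparisons rested on the values themselves, so this p is no independent evidence.

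*Cox6b2*, the testis form of subunit VIb, was 1.81-fold higher in *Cmah*-null cochleae, while its partner *Cox6b1* was not. *Cox6b2* read 8.85, 9.32 and 8.87 in WT and 9.87, 9.66 and 10.10 in *Cmah*-null arrays (log2 fold change 0.86 ± 0.18 SE, adjusted p = 0.397 in limma). All *Cmah*-null arrays lay above WT, and the direction was the same in each of the 15 alternatives. A second probe for *Cox6b2* was detected on no array, and the call was lost when the probes of a symbol were averaged. *Cox6b1* read 15.11, 14.95 and 14.67 in WT against 14.56, 14.63 and 13.15, a fold change of -0.80 ± 0.42 that was -0.32 without replicate 3. Within an array, *Cox6b2* less *Cox6b1* was -6.26, -5.63 and -5.80 in WT and -4.69, -4.98 and -3.04 in *Cmah*-null cochleae. The shift of 1.66 ± 0.63 separated the groups (p = 0.1, the smallest the exact permutation test can give, and adjusted p = 0.3 over the 3 pairs tested, the value of all 3), and was 1.06 without replicate 3. *Cox4i2*, the lung form that responds to low oxygen, was detected on 2 arrays only and read 7.43, 7.43 and 7.19 in WT and 7.61, 7.57 and 7.54 in *Cmah*-null arrays. Its fold change of 0.22 ± 0.09 is a difference near background, and its pair with *Cox4i1* was not tested.

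**Figure D3:**
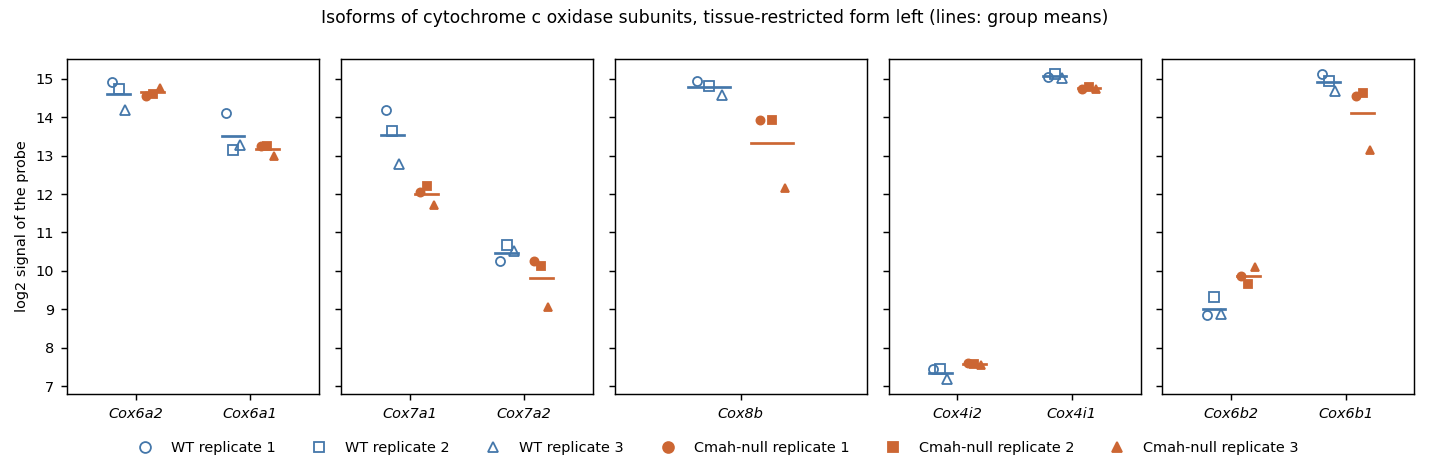
Log2 signal of the tissue-restricted form (left in each panel) and the form of most tissues (right) of complex IV subunits on each array, with group means as lines. Compare genotypes within a probe, not probes with each other: *Cox7a1* and *Cox8b* are lower on every *Cmah*-null array, *Cox6a2* overlaps, and *Cox6b2* is higher on every *Cmah*-null array.

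In complex V, 13 of the 15 genes had negative fold changes. Only *Atp5h* was lower at the threshold (6.67%, beside 1.41% of all probes), and none was higher, beside 1.3%. The median was -0.33, and it was -0.14 with median scaling, -0.20 without WT replicate 1, -0.59 without *Cmah*-null replicate 1, -0.51 with *Cmah*-null replicates 1 and 2 averaged and -0.56 with the bead block. *Atp5h*, subunit d of the peripheral stalk, read 12.61, 12.73 and 12.44 in WT and 12.00, 12.01 and 10.93 in *Cmah*-null cochleae. Its groups did not overlap, and the fold change of -0.94 ± 0.31 had an adjusted p of 0.540 in limma. Without replicate 3 it was -0.58, just under 1.5-fold. *Atp5b*, the catalytic beta subunit, read 15.88, 15.73 and 15.71 in WT against 15.47, 15.63 and 15.71, a fold change of -0.17 ± 0.10. With median scaling it was 0.20, below that scaling's median of 0.30. *Atp5a1*, the alpha subunit of the same hexamer, read 11.31, 12.59 and 12.21 in WT and 10.68, 10.39 and 12.05 in *Cmah*-null arrays. The arrays that broke its pattern were WT replicate 1, which was low, and *Cmah*-null replicate 3, which lay within the WT range. The fold change of -0.995 ± 0.53 was -1.50 without the latter and -0.56 with the bead block. *Atp5f1*, subunit b of the stalk, now named *Atp5pb*, read 11.92, 10.91 and 10.40 in WT and 10.53, 10.86 and 9.49 in *Cmah*-null cochleae. These groups overlapped, and the fold change of -0.78 ± 0.51 was -0.38 without *Cmah*-null replicate 3 and -0.36 without WT replicate 1. *Atp5j2*, subunit f of the membrane part, read 15.26, 14.86 and 14.69 in WT against 14.53, 14.57 and 12.60. It separated the groups with a fold change of -1.04 ± 0.56, of which -0.39 was left without replicate 3. The remaining 10 genes had fold changes from -0.93 in *Atp5e*, the epsilon subunit, to 0.15 in *Atp5g3*, one of the genes for the proton-carrying c ring, both named after their values were seen. *Atp5s*, which the rule takes in by its symbol, is now named *Dmac2l* and is no subunit of the enzyme, and its fold change was 0.03.

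The *Cmah*-null arrays did not lower the same genes to the same degree. Replicate 3 lay more than 1 log2 unit below both other *Cmah*-null arrays in 12 of the 33 genes detected throughout (36.4%), against 9.30% of all probes so detected. It lay more than 0.5 above both in 5 (15.2%), against 22.5%. The 12 genes included *Uqcrh*, *Uqcrc2*, *Cox8b*, *Cox6b1* and *Atp5j2*, and the 5 were *Uqcrc1*, *Cox5a*, *Atp5a1*, *Atp5d* and *Atp5e*. Without this array the median over the 39 genes was -0.26 and 29 were negative. At the threshold 10 were then lower, 7 of them among the 8 named above, beside 1.82% of all probes.

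**Figure D4:**
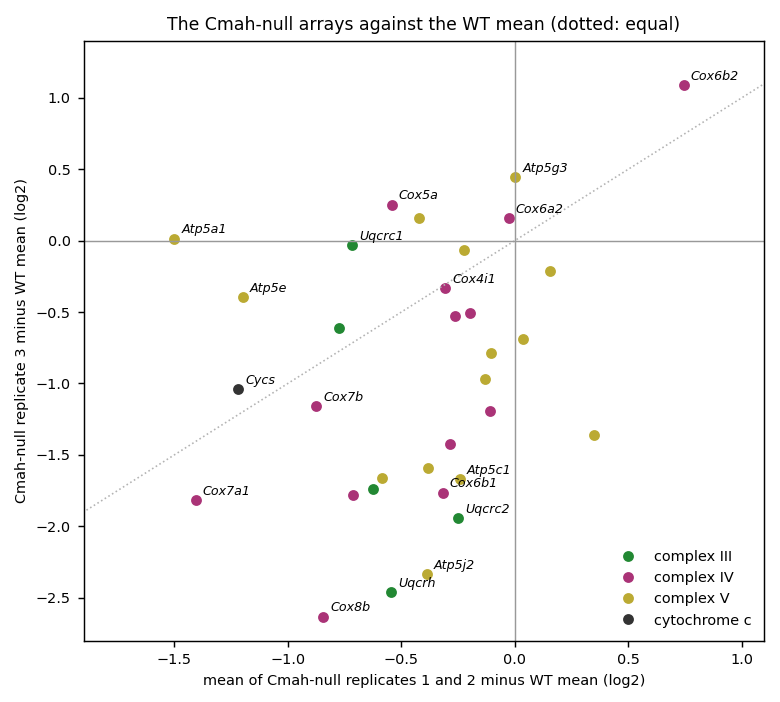
Log2 difference from the WT mean of *Cmah*-null replicate 3 (vertical axis) and of the mean of replicates 1 and 2 (horizontal axis) for the 33 genes detected on all 6 arrays, coloured by complex. Genes under the dotted line, such as *Cox8b*, *Uqcrh* and *Atp5j2*, were lower on replicate 3 than on the other *Cmah*-null arrays, and *Atp5a1* and *Atp5e* were higher on it.

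Both sets of arrays with like bead numbers held both genotypes. Among the arrays with fewer beads, the median difference of *Cmah*-null replicates 1 and 2 from WT replicate 1 was -0.51, and 31 of the 33 genes were negative. Among those with more beads, the median difference of *Cmah*-null replicate 3 from WT replicates 2 and 3 was -0.91, and 27 were negative. In both sets 26 of the 33 (78.8%) were negative, against 22.9% of the probes detected on all 6 arrays. The GC content of the probe was set against these differences across the 33 genes, whose points share the same arrays. It had r = 0.69 with the difference of WT replicate 1 from the other WT arrays (0.25 across all 12410 probes). With the difference of *Cmah*-null replicate 3 from the other *Cmah*-null arrays, r was -0.33 (0.02 across all), and with the log2 fold change it was 0.29 (0.13 across all). Low GC probes such as those of *Atp5a1*, *Cycs* and *Cox7b*, with 38%, 42% and 40%, read low in WT replicate 1. Its part in the fold changes was not tested.

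Because many of these genes have known binding sites for shared nuclear factors, their promoters were searched. RefSeq promoter windows of 300 bases on GRCm38.p6, from 250 bases before to 50 after the start, were found for 28 of the 39 genes and 27025 genes in all, and both strands were read. The NRF-1 motif (GCGCA and GCGC with any base between) was in 7 of the 28 (25%), against 5.19% of all genes with a window, and the GABP (NRF-2) motif CCGGAAG in 8 (28.6%), against 9.93%. Either motif was in 13 (46.4%), against 13.99%. YY1 (AANATGGC) was in 5 (17.9%), against 6.96%, ERRalpha (TCAAGGTCA) in 1, *Atp5g3* (3.57%, against 0.466%), and MEF2 (CTA and TAG with any 4 bases between), a factor of muscle genes, in none, against 4.23%. The windows of the members had a median GC content of 56%, against 52.7% over all windows, and *Cox6a2*, *Cyc1*, *Cox4i1* and *Atp5a1* were among the 11 genes without a window. Below are the 250 bases before the start of 2 genes of all tissues that hold a motif and of the 2 muscle forms with the largest falls, which hold none of the 5. Capitals mark the matches: in *Atp5h* (chr11:115419920-115420169, minus strand) the NRF-1 motif and further on GABP read on the opposite strand, and in *Uqcrh* (chr4:116075071-116075320, minus strand) GABP on the opposite strand. *Cox7a1* is at chr7:30183921-30184170 on the plus strand and *Cox8b* at chr7:140900447-140900696 on the minus strand.
Atp5h: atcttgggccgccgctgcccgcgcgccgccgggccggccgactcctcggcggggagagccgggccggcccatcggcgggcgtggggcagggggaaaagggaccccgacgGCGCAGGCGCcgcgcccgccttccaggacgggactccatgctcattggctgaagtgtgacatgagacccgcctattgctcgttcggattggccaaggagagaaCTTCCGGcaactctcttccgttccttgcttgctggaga
Uqcrh: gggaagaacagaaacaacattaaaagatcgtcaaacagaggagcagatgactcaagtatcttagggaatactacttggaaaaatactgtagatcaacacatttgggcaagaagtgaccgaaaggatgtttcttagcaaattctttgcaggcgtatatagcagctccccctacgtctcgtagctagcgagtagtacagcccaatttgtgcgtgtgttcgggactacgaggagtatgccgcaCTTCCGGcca
Cox7a1: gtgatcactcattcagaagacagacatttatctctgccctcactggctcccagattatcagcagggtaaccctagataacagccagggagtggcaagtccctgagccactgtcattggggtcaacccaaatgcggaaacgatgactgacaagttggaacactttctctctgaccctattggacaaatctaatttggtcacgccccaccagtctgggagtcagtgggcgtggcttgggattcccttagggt
Cox8b: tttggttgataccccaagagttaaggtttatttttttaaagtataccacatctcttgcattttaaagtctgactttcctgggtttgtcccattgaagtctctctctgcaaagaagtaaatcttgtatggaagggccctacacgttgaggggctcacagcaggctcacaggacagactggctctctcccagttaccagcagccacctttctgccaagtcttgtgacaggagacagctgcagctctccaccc
A match describes these letters only. Both genes with a motif had negative fold changes (-0.94 in *Atp5h*, -1.18 in *Uqcrh*), as had both genes without. All of them were among the 3 largest fold changes of their complex. Their shared sign came with this choice and is no comparison of genes with and without a motif.

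Genes that assemble these complexes or regulate their transcription were read from a list of 36, of which 29 were found. Of these, 20 had negative and 9 positive fold changes, 4 (of 29) were lower at the threshold, beside 1.41% of all probes and 2.64% of those detected on all 6 arrays, and none was higher. *Cox17*, which brings copper to complex IV, read 12.12, 12.17 and 11.93 in WT and 11.67, 11.67 and 10.88 in *Cmah*-null cochleae, a fold change of -0.67 ± 0.24. It was -0.40 without *Cmah*-null replicate 3, under 1.5-fold, and the call was also lost without WT replicate 1 or 2. *Atpaf2* and *Tmem70*, both needed to assemble ATP synthase, had fold changes of -0.74 ± 0.19 and -0.73 ± 0.09. The call of *Tmem70* was kept with any 1 array left out, and that of *Atpaf2* was lost without WT replicate 1. *Tmem70* read 9.84, 9.82 and 9.64 in WT against 9.08, 9.09 and 8.93. *Cox17*, *Atpaf2* and *Tmem70* were lower on each *Cmah*-null array than on each WT array. *Ppargc1a*, the coactivator PGC-1alpha that drives mitochondrial biogenesis, read 11.14, 11.02 and 11.19 in WT and 10.59, 10.90 and 9.89 in *Cmah*-null arrays (-0.65 ± 0.26). It was -0.37 without replicate 3, and the call was kept only without *Cmah*-null replicate 2 of the 6 arrays left out. By list, the members lower at the threshold were 0 of 3 for complex III assembly, 1 of 11 for complex IV assembly, 2 of 4 for ATP synthase assembly and inhibitor, 0 of 2 for haem attachment and the testis cytochrome *c*, and 1 of 9 for transcription.

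Because muscle forms were among the genes that fell furthest, marker lists were read on the same arrays. All 18 skeletal muscle genes were found, and 17 had negative fold changes with a median of -0.48. Only *Mb*, myoglobin, was lower at the threshold (-0.87 ± 0.17), beside 1.41% of all probes. *Myh7* was not detected. The list's median log2 signal was 14.73, 14.58 and 13.33 in WT and 13.79, 13.80 and 13.89 in *Cmah*-null arrays. The genotypes overlapped through WT replicate 3, and all *Cmah*-null arrays lay below WT replicates 1 and 2. Of 10 brown fat genes, 9 were negative with a median of -0.64. *Ucp1* (-2.11 ± 0.52), *Cidea* (-2.01 ± 0.42) and *Ppargc1a* were lower at the threshold, beside 1.41% of all probes. That list's median ran from 10.32 to 10.67 in WT and from 9.83 to 9.98 in *Cmah*-null arrays without overlap, with *Dio2* and *Prdm16* not detected. *Ucp1*, which uncouples the proton gradient in brown fat, read 13.63, 12.48 and 11.79 in WT against 10.82, 10.84 and 9.90. Thus *Ucp1*, *Cidea* and *Ppargc1a* were lower on each *Cmah*-null array than on each WT array, as were *Cox7a1* and *Cox8b*. The other brown fat genes detected on at least 3 arrays, *Elovl3*, *Otop1*, *Slc27a2*, *Cpt1b* and *Adrb3*, overlapped between genotypes. Of the *Cmah*-null arrays, replicate 3 read lowest for *Ucp1* (9.90), *Cidea* (9.97), *Ppargc1a* (9.89), *Elovl3* (7.31) and, narrowly, *Slc27a2* (9.10), as for *Cox8b*. It read highest for *Cpt1b* (12.85) and *Otop1* (9.76), and *Adrb3* lay between the other *Cmah*-null arrays. The part of muscle or brown fat in the fold changes was not tested.

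Markers of hair cells and of support cells and stria were not lower as lists. In each, 3 of 12 genes had negative and 9 positive fold changes. The 12 hair cell genes had a median of 0.09 (0.08 without *Cmah*-null replicate 3), with *Slc26a5* and *Pou4f3*, which define outer hair cells and hair cells, not detected, and list medians of 7.75 to 8.09 in WT and 8.22 to 8.25 in *Cmah*-null arrays. These list medians rest on 7 genes and lie near the median of all probes, 7.70, and only *Gfi1* separated the genotypes. For the 12 genes found of cochlear support cells and stria, the median fold change was 0.15 (0.08 without *Cmah*-null replicate 3), with list medians of 9.58 to 11.21 and 10.34 to 10.41 and *Tectb* not detected. Its negative genes were *Otos* (-0.65), *Coch* (-0.64) and *Kcne1* (-0.30), which overlapped between genotypes. Without *Cmah*-null replicate 3 these were -0.03, -0.42 and 0.10. None of these 24 genes reached the threshold. Of 9 neuron genes, 7 were negative and 2 positive, with a median of -0.06 (0.01 without *Cmah*-null replicate 3). At the threshold *Prph* was lower (-1.37 ± 0.36), beside 1.41% of all probes, and *Calb2* higher (0.63 ± 0.21), beside 1.3%. The call of *Calb2* was lost without WT replicate 1 or 2 or *Cmah*-null replicate 1 or 2. The list medians were 10.82 to 12.35 in WT and 11.03 to 12.05 in *Cmah*-null arrays, with *Nefl* and *Snap25* not detected. The 9 blood genes had a median of -0.03, which was 0.34 without *Cmah*-null replicate 3, and none reached the threshold, with list medians of 12.04 to 13.53 and 12.22 to 12.78.

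**Figure D5:**
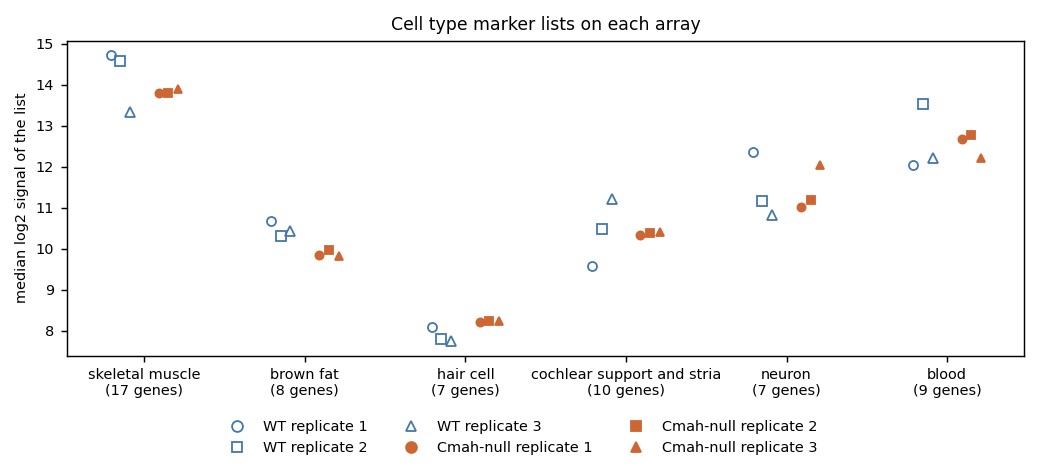
Median log2 signal of each cell type marker list on each array, over the genes of the list detected on at least 3 arrays. Only for brown fat and hair cell do the genotypes not overlap, with *Cmah*-null arrays lower for brown fat (9.83 to 9.98 against 10.32 to 10.67) and higher for hair cell (8.22 to 8.25 against 7.75 to 8.09). The hair cell medians rest on 7 genes and lie near the median of all probes, 7.70.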

How the data were processed

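Biotin-labelled RNA from 6 cochlear samples was hybridized to 1 array each. The authors deposited the average bead signal of each probe as a linear intensity without normalization, with a bead standard error, a number of beads and a detection p-value. The log2 values of another deposited table matched the quantile-normalized intensities within 5.0e-07. Its columns call the second group "old", taken here as *Cmah*-null because it is the group other than WT, with the replicate number in the name. Another 12 per-sample columns were not used, nor were the authors' fold changes and LPE p-values.

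The log2 values of all 25697 probes were compared with limma 3.58.1 in R 4.3.3 (lmFit, eBayes, two-sided) and adjusted by Benjamini-Hochberg over all probes. The script was tested on simulated data. Isoform differences used exact permutation tests (scipy 1.17.1) and figures matplotlib 3.10.9 in Python 3.11.15. Members, lists and tests were chosen with earlier results of these data known. Values are given for isoform pairs, *Cyc1*, *Cycs*, *Atp5f1*, *Atp5a1*, *Atp5b*, the 3 largest fold changes per complex, members against their complex by 0.2 or more and listed genes at the threshold, with any others named once their values were known. Alternatives were neqc (offset 16), median scaling, keeping probes detected on 3 or more arrays, replicate and bead blocks, each array left out, *Cmah*-null replicates 1 and 2 averaged, a trended robust prior, an ordinary test and averaged probes.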

Additional observations from a re-analysis of the deposited data

How the results depend on the processing

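Neither neqc normalization, the filter, averaging *Cmah*-null replicates 1 and 2, the trended robust prior nor averaged probes moved the count of 8 lower members by over 1.5 times. It was 2 with median scaling, 16 with the bead block, 4 with the ordinary test, and 4 (without WT replicate 2) to 10 (without *Cmah*-null replicate 3) with an array left out. The median of -0.41 over the 39 genes was -0.13 with median scaling and ran from -0.59 to -0.26 with an array left out. Over members detected on at least 3 arrays it was -0.66. The median of complex III was -0.20 with median scaling. The 14 members with each *Cmah*-null array below each WT array became 2 with median scaling. Median scaling moved the median of the probes detected on all 6 arrays to 0.30. The signs of *Atp5b* (0.20), *Cox6a1* (0.15) and *Cox4i1* (0.10) turned with it, all still below that median, and the sign of *Cox6a2* turned with the bead block (-0.0128), without WT replicate 3 (-0.18) and without *Cmah*-null replicate 3 (-0.03), within -0.18 to 0.19 over the arrays left out. The 1 higher member became 0 with averaged probes. The cause of the other changes was not tested. No probe passed an adjusted p under 0.05 in any alternative except 3 with the bead block, none a member. Deviations of same-numbered samples had correlations of 0.02, -0.17 and 0.01. Differences between arrays also enter these deviations, so they cannot decide whether the numbers pair the samples. With the replicate block 9 members were lower, with *Cox6b1* added, and the median stayed at -0.41. The 3 isoform pairs and 2 added differences kept their direction in each alternative run on them, but with an array left out their smallest possible p rises above 0.1. Among the members, 9 had a mean log2 signal of 14 or more, where the highest on any array was 16.04, and 6 were near background.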

Other observations

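The array holds 4 detected probes of predicted genes that the symbol rule leaves out, and whose definitions liken them to subunits of these complexes. They were chosen after their values were seen. LOC100048480, likened to the ubiquinol-cytochrome *c* reductase binding protein of complex III, read 11.59, 12.13 and 11.68 in WT and 10.75, 10.46 and 10.31 in *Cmah*-null cochleae, a log2 fold change of -1.29 ± 0.19 with an adjusted p of 0.365 in limma. LOC668837, likened to the g subunit of ATP synthase, read 9.41, 10.71 and 10.46 in WT against 9.13, 8.88 and 8.61 (-1.31 ± 0.36). LOC100048613, likened to subunit VIIc of complex IV, had a fold change of -1.12 ± 0.59 with a low replicate 3 (11.13, against 13.17 and 13.21 in replicates 1 and 2). In these 3 the genotypes did not overlap. LOC100048483, likened to subunit VIII of complex IV, read 14.61, 14.13 and 14.29 in WT against 14.61, 14.47 and 13.20. The genotypes overlapped (-0.25 ± 0.39), and only *Cmah*-null replicate 3 lay below the WT range. Probes of predicted genes can share sequence with the gene they resemble, so the transcript read is uncertain.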
